A study of Homo sapiens with 6 samples.

Results

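MYC, its partner MAX and 38 genes of ribosome biogenesis were followed in 6 RNA-seq libraries of THP-1 cells, an established human monocytic leukaemia line. These 40 genes were a named list, chosen with earlier results of these data known. All were found in the deposited tables by symbol, with a value in all 6 libraries. They are 40 of 60325 genes listed, of 17388 genes with a value in every library, and of the 13556 genes tested, whose mean level was 1 or above. The cells were given recombinant human IL-6, a cytokine that signals through STAT3, or were controls labelled ctrl, and total RNA was collected after 6, 24 and 48 h. Each of the 6 conditions was 1 library, so a difference at a single time has no replicate check and no test. What the control cells were given, the IL-6 dose and the number of cultures are not stated in the labels. The cells are 1 cultured line, without the other cells of a tissue.

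MYC is a transcription factor that binds DNA as a dimer with MAX, chiefly at the E-box CACGTG, and its targets include much of the machinery that makes ribosomes. That machinery works in the nucleolus: RNA polymerase I copies the ribosomal RNA precursor, small nucleolar ribonucleoproteins (snoRNPs) guide its chemical modification, and separate sets of factors fold, cut and assemble the small and the large subunit. In blood cells these genes are known to be high in growing and dividing cells and to decline as cells mature.

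The promoters of the 3 genes with the highest difference between IL-6 and control cells at 6 h, and of the gene with the lowest, are shown to place the MYC binding motif beside the values. Each sequence runs 5′ to 3′ on the gene's strand, from 250 bases before to 50 bases after a start site in RefSeq (GRCh38.p14), and capitals mark CACGTG, which reads the same on both strands.
DDX21, chr10:68956397-68956696, plus strand: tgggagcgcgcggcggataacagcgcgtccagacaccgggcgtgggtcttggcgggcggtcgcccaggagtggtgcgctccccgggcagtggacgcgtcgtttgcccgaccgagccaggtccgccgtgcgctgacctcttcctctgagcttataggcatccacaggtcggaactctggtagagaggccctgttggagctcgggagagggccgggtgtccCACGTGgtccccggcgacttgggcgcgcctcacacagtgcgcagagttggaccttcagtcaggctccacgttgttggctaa
NOC3L, chr10:94362890-94363189, minus strand: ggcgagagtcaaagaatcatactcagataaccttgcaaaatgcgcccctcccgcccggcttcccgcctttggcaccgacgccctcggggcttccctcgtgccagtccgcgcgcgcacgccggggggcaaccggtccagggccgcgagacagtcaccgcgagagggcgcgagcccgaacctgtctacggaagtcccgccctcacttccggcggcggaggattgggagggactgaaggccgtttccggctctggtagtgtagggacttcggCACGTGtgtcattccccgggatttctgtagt
RRP9, chr3:51941855-51942154, minus strand: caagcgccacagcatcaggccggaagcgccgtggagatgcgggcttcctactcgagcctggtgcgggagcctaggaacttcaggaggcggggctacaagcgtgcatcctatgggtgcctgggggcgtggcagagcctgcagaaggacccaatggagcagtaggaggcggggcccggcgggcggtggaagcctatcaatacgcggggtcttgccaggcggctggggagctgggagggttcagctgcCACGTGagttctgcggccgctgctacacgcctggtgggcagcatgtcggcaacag
MAX, chr14:65102234-65102533, minus strand: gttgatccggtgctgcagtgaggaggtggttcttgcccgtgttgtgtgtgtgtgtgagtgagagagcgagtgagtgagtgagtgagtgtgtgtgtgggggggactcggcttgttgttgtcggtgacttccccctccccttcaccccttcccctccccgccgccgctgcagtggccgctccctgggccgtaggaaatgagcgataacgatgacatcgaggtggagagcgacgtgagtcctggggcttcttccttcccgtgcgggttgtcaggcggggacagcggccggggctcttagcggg
Relative to the start of the entry shown, the motif began 31 bases before it in DDX21, 19 bases after it in NOC3L and 5 bases before it in RRP9. The DDX21 entry shown lies inside the gene of the deposited annotation. Another DDX21 entry, which covers the annotated gene start, did not hold the motif. The MAX entry shown did not hold these 6 letters, nor did a second MAX entry. Both MAX entries lie inside the annotated gene and do not cover its start, so the sequence before that start was not examined. A match is a description of the letters and not of binding. The promoter table had an entry for 32 of the 40 genes, and 14 of those 32 (43.8%) had CACGTG in at least 1 entry, against 1241 of the 9759 tested genes with an entry (12.7%). The 14 were BYSL, DDX21, FBL, GAR1, GNL3, MRTO4, NOC3L, NOP14, NOP2, PES1, RRP9, UTP20, UTP4 and WDR43. Over all 35116 promoters of this length, 7.26% held the motif.

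The deposited values are log2 values that the authors centred on 0 for each gene, so they give differences between libraries and not absolute levels, and the sequencing depth is unknown. A library listed a value for 22000 to 23108 genes. BCL3, PIM1 and STAT3, 3 of 4 known IL-6 response genes examined, were called higher with IL-6, with log2 differences over the 3 times of 2.48, 2.67 and 0.78. Markers of monocytes passed the level filter in 10 of 10 cases. The filter kept 1 of 8 markers of T or NK cells, 2 of 5 of B cells, 1 of 7 of red cells or platelets and 0 of 8 of epithelium or fibroblasts. Of the monocyte markers, only ITGAM and SPI1 had a recovered level. The other monocyte markers, and NKG7 of the T and NK list, had none and were treated as high, so they passed without a measured level. Fewer cells expressing a gene and less RNA per cell cannot be told apart in bulk RNA, and a change in total RNA per cell would not show in these values.

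After 6 h, 38 of the 40 genes had a higher value in the IL-6 library than in the control library, all except MAX and TCOF1. Their median log2 difference was 0.29, against 0.02 over all tested genes, of which 52.2% were higher with IL-6. A difference of at least 1.2-fold upwards was found for 21 of the 40 genes (52.5%), against 22.3% of all tested genes, and downwards for 0 of the 40 genes, against 21.6%. Among the 36 genes whose mean level was at least 10 or was not recovered, 19 passed 1.2-fold upwards, against 15.2% of all genes at such levels. Only DDX21 passed 2-fold, a size that 6.97% of all tested genes reached in 1 direction or the other. The heat map of deposited values shows the IL-6 library of 6 h as the highest of the 6 libraries for 29 of the 40 genes, as it was for 17.2% of all tested genes.

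**Figure D1:**
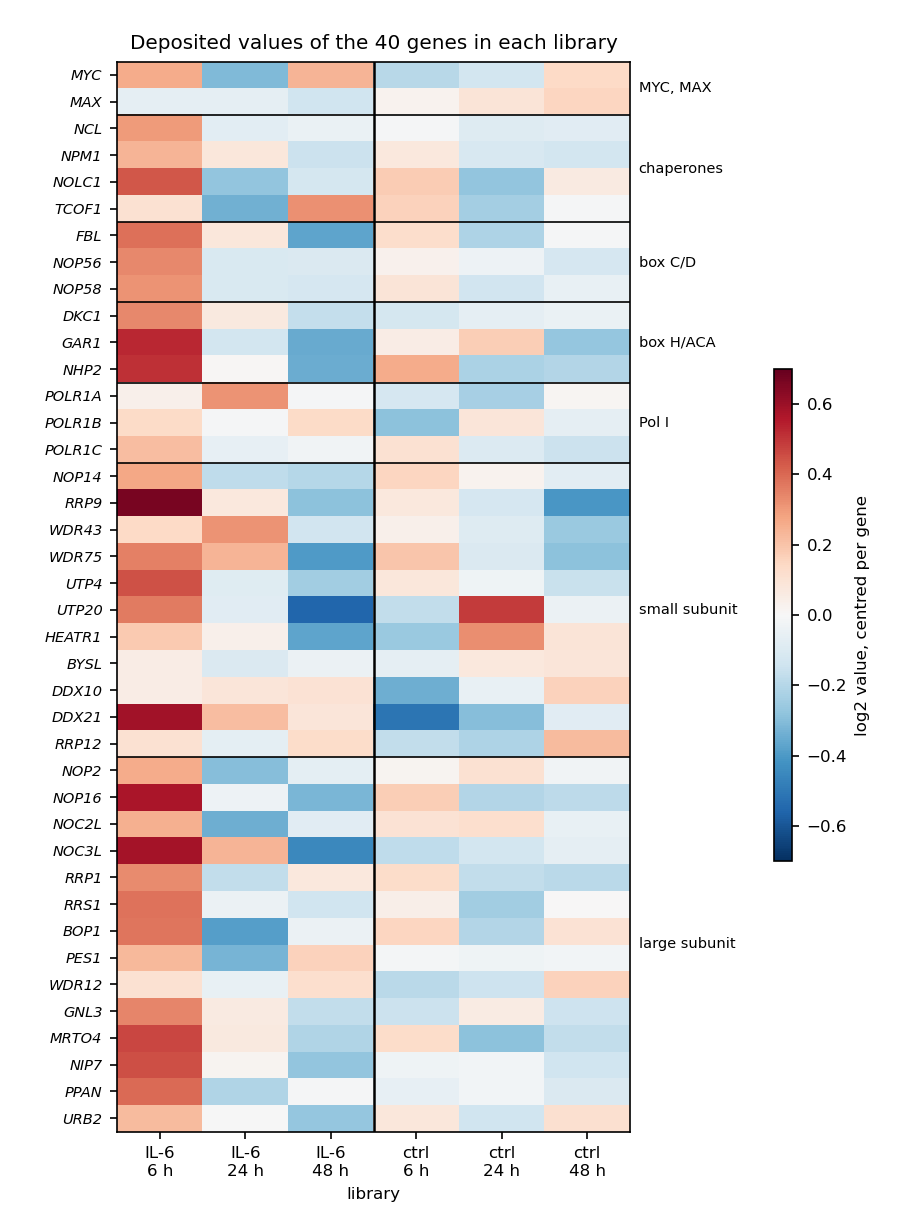
Deposited log2 values, centred on 0 for each gene, of the 40 genes (down the page, by role) in the 6 libraries (across), with 1 library per column. Red is above and blue below the gene's mean; the IL-6 column of 6 h is the highest for 29 of the 40 genes.

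The difference was smaller at the later times. After 24 h, 24 of the 40 genes were higher in the IL-6 library, with a median log2 difference of 0.02, against -0.07 over all tested genes, of which 43.6% were higher. At least 1.2-fold higher were 7 of the 40 (21.0% of all tested genes) and at least 1.2-fold lower were 6 (31.7% of all tested genes). After 48 h, 12 of the 40 were higher and 28 lower, with a median of -0.06, against -0.04 over all tested genes, of which 44.8% were higher. In the deposited values 1 of the 40, TCOF1, was at least 1.2-fold higher at 48 h (20.5% of all tested genes) and 6 were at least 1.2-fold lower (26.0%). With the authors' library factor removed, 20 of the 40 were higher at 48 h and the median was 0.0025. In the deposited values, 27 of the 40 genes were higher at 6 h and lower at 48 h. The share of all tested genes with that order was not counted. At every time 6 were higher (NCL, POLR1C, RRP9, WDR43, DDX21 and RRP1), and MAX alone was lower. The 6 that were higher throughout are 15% of the 40, near the 12.5% of all tested genes. Lower throughout were 2.5% of the 40, against 18.2% of all tested genes.

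**Figure D2:**
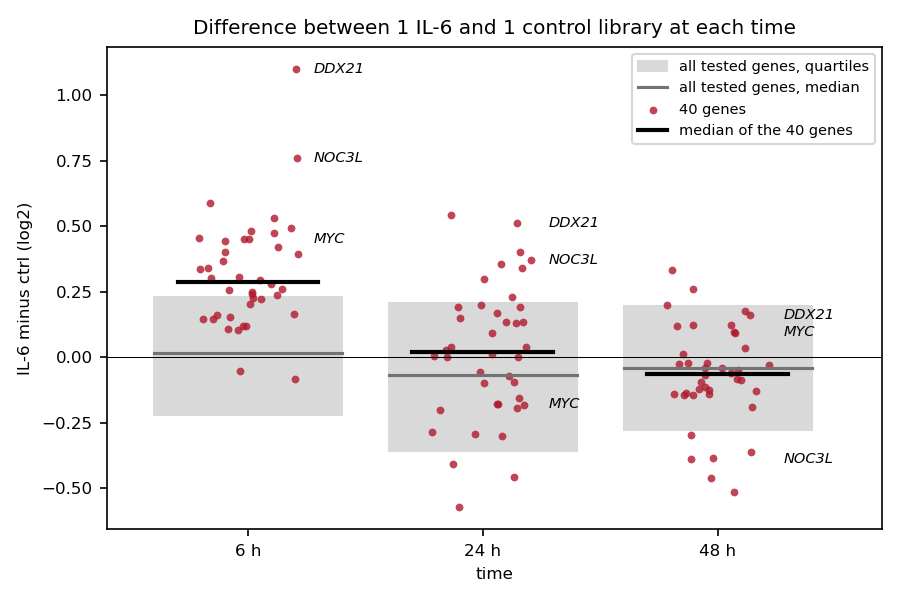
IL-6 minus control in log2 (vertical axis) at 6, 24 and 48 h, with 1 red point per gene of the 40 and the black bar at their median; the grey box spans the quartiles of all tested genes and the grey line is their median. The red points lie mostly above 0 at 6 h, with a median of 0.29, and on both sides of 0 at 24 and 48 h.

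A limma model with time as a block and IL-6 as the effect over the 3 time-matched pairs called 0 of the 40 genes at a Benjamini-Hochberg adjusted p under 0.05, against 34 of all tested genes (0.251%). At an unadjusted p under 0.05, RRP9 and DDX21 were higher, 2 of 40 against 3.70% of all tested genes, and 0 were lower. The median IL-6 effect over the 3 times was 0.11 for the 40 genes, or -0.0098 without the 6 h pair. A second limma model compared the IL-6 effect at 6 h with its mean at 24 and 48 h, and called 0 of the 40 genes, against 32 of all tested genes (0.236%). The difference between the times was positive for 37 of the 40, with a median of 0.32, against 57.6% positive and a median of 0.07 over all tested genes. At an unadjusted p under 0.05, 0 of the 40 passed, against 1.99% of all tested genes on the higher side, and the smallest unadjusted limma p among the 40 was 0.0603, for HEATR1. This model has 1 residual degree of freedom, and the labels do not mention separate cultures. The p-values of both models therefore cover the variation among these 6 libraries only, part of which may be technical. In the first model the residual is the change of the IL-6 difference from time to time. A difference limited to 6 h would therefore enlarge the error of that model and be hard for it to call. In the second model the residual is the change of the IL-6 difference between 24 and 48 h.

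MYC itself (chr8:127735434-127742951, plus strand) had values of 0.26, -0.31 and 0.24 at 6, 24 and 48 h in the IL-6 libraries, against -0.19, -0.13 and 0.14 in the control libraries. MYC was thus higher with IL-6 at 6 h, lower at 24 h and slightly higher at 48 h, and the ranges of both arms overlapped. Its log2 differences were 0.45, -0.18 and 0.10, and the effect over the 3 times was 0.12 ± 0.13 (SE; limma adjusted p = 0.849), or -0.041 without the 6 h pair. MAX (chr14:65006174-65102695, minus strand) had -0.06, -0.06 and -0.14 in the IL-6 libraries, against 0.02, 0.09 and 0.15 in the control libraries. All 3 IL-6 values of MAX lay below all 3 control values, and its effect over the 3 times was -0.18 ± 0.12 (SE; limma adjusted p = 0.728). MAX and DDX21 were the 2 of the 40 genes whose arms did not overlap, against 9.22% of all tested genes. MYC overlaps the antisense gene CASC11 and MAX overlaps FNTB in the deposited annotation, and the library kit does not mark the strand, so their reads cannot be told apart where the genes overlap. The same limit holds for others: 19 of the 40 genes overlap another protein-coding or long non-coding RNA gene. HEATR1, NOC2L, NOP16, WDR12, UTP4, GNL3 and PPAN are among the 19, and DDX21, NOC3L and RRP9 are not.

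**Figure D3:**
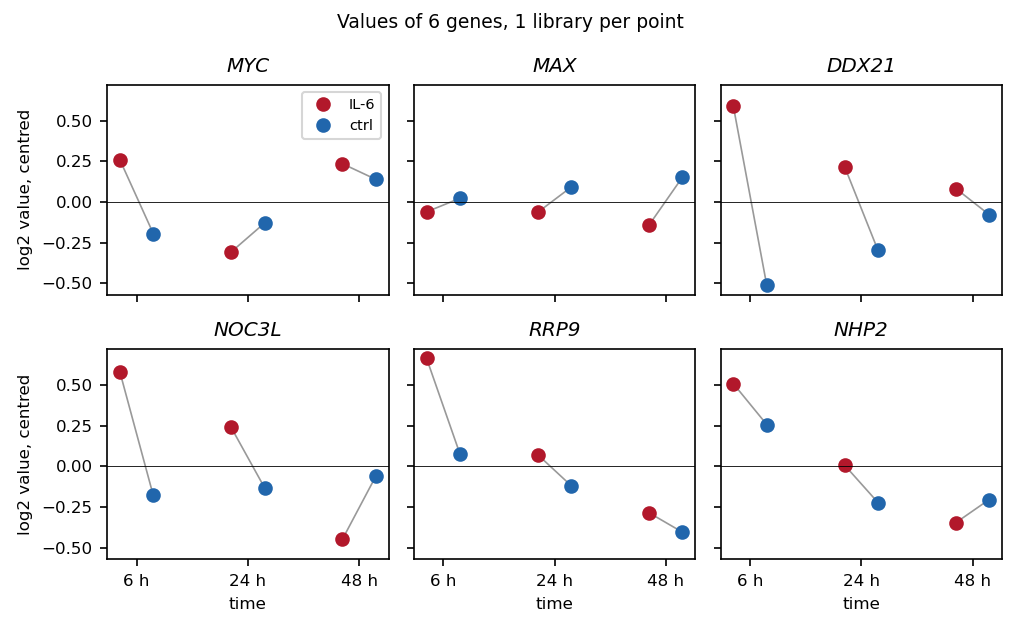
Deposited log2 values of MYC, MAX, DDX21, NOC3L, RRP9 and NHP2 in each library, with IL-6 (red) left of ctrl (blue) at each time and a grey line joining the pair. DDX21 lies higher with IL-6 at all 3 times and MAX lower, whereas MYC and NOC3L cross.

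Among the nucleolar chaperones, NCL (nucleolin), NPM1 (nucleophosmin) and NOLC1, which accompanies snoRNPs, had log2 differences of 0.30, 0.17 and 0.26 at 6 h. TCOF1 (treacle), which supports transcription by RNA polymerase I, stood apart from them. It had 0.10, -0.34 and 0.32 at 6, 24 and 48 h in the IL-6 libraries, against 0.16, -0.24 and -0.01 in the control libraries. Its differences were -0.05, -0.10 and 0.33, with overlapping arms and an effect of 0.06 ± 0.16 (SE; limma adjusted p = 0.946), or -0.075 without the 48 h pair.

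The snoRNP core proteins were all higher with IL-6 at 6 h. In the box C/D particle, which adds methyl groups, the scaffold proteins NOP56 and NOP58 and the methyltransferase FBL had log2 differences of 0.31, 0.23 and 0.26. In the box H/ACA particle, which makes pseudouridine, the synthase DKC1 and its partners GAR1 and NHP2 had 0.46, 0.48 and 0.25. At 48 h the differences of DKC1, GAR1 and NHP2 were -0.12, -0.08 and -0.14, and that of FBL was -0.36. NHP2 (chr5:178149463-178153894, minus strand) had 0.51, 0.01 and -0.35 at 6, 24 and 48 h in the IL-6 libraries, against 0.26, -0.22 and -0.20 in the control libraries. Both arms had their highest value at 6 h. Over culture time NHP2 fell by 0.66 ± 0.14 at 48 h relative to 6 h (SE; limma adjusted p = 0.0381). It overlaps RMND5B in the deposited annotation.

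Of the RNA polymerase I subunits, POLR1A and POLR1B, the 2 largest, had log2 differences of 0.15 and 0.42 at 6 h, 0.54 and -0.09 at 24 h, and -0.02 and 0.20 at 48 h. POLR1C, which is shared with RNA polymerase III, had 0.11, 0.04 and 0.12. These 3 genes therefore followed no common order over the times.

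The 11 genes of the small subunit processome among the 40 were all higher with IL-6 at 6 h, with a median log2 difference of 0.37. DDX21 (chr10:68956135-68985068, plus strand), an RNA helicase that acts in ribosomal RNA synthesis and processing, had the highest difference of the 40. It had 0.59, 0.22 and 0.08 at 6, 24 and 48 h in the IL-6 libraries, against -0.51, -0.30 and -0.08 in the control libraries. Every IL-6 value lay above every control value, and the gap narrowed with time through lower values in the IL-6 arm and higher values in the control arm. The IL-6 library of 6 h was 2.14-fold above its control, the log2 differences were 1.10, 0.51 and 0.16, and the effect over the 3 times was 0.59 ± 0.20 (SE; limma adjusted p = 0.41), or 0.34 without the 6 h pair.

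RRP9 (chr3:51933429-51941904, minus strand), a protein of the U3 snoRNP that starts the cutting of the small subunit precursor, had 0.66, 0.07 and -0.29 in the IL-6 libraries at 6, 24 and 48 h, against 0.08, -0.12 and -0.41 in the control libraries. It was higher with IL-6 at each time, and each arm had its highest value at 6 h and its lowest at 48 h, so the arms overlapped. The differences were 0.59, 0.19 and 0.12, with an effect of 0.30 ± 0.13 (SE; limma adjusted p = 0.552), or 0.16 without the 6 h pair. Over culture time RRP9 fell by 0.72 ± 0.16 at 48 h relative to 6 h (SE; limma adjusted p = 0.0415).

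UTP20, a large scaffold protein of the processome, had 0.36, -0.08 and -0.56 in the IL-6 libraries at 6, 24 and 48 h, against -0.17, 0.49 and -0.04 in the control libraries. Its sign turned between 6 h and 24 h, and its differences were 0.53, -0.57 and -0.51, with an effect of -0.18 ± 0.35 (SE; limma adjusted p = 0.925), or 0.010 without the 24 h pair. UTP20 had the lowest recovered mean level of the 29 genes with one, 2.62 on the arbitrary scale of these tables. HEATR1, another scaffold protein needed for RNA polymerase I transcription, had differences of 0.44, -0.29 and -0.46 at 6, 24 and 48 h. Its signs were those of UTP20, but its lowest difference was at 48 h and that of UTP20 at 24 h.
WDR43, a processome protein of the subgroup that joins early, had 0.14, 0.31 and -0.14 in the IL-6 libraries, against 0.03, -0.09 and -0.26 in the control libraries. Its difference was 0.10 at 6 h, the third lowest of the 40, and 0.40 at 24 h, with overlapping arms. WDR75 and UTP4, of the same subgroup, had 0.16 and 0.37 at 6 h, and NOP14 and BYSL 0.12 each.

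The RNA helicase DDX10 and the export factor RRP12 were among the 3 genes with the highest values at 48 h relative to 6 h. DDX10 had 0.05, 0.08 and 0.10 in the IL-6 libraries at 6, 24 and 48 h, against -0.34, -0.05 and 0.16 in the control libraries. RRP12 had 0.11, -0.07 and 0.13 in the IL-6 libraries, against -0.17, -0.22 and 0.22 in the control libraries. In both genes the lowest values were in control cells and the arms overlapped, and the change at 48 h was 0.28 ± 0.19 for DDX10 and 0.21 ± 0.22 for RRP12 (SE; limma adjusted p = 0.448 and 0.644).

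All 14 large subunit assembly genes were higher with IL-6 at 6 h, between 0.15 for URB2 and 0.76 for NOC3L, with a median of 0.32. NOC3L (chr10:94333226-94362959, minus strand), which takes part in moving early large subunit particles through the nucleolus in yeast, had 0.58, 0.24 and -0.45 at 6, 24 and 48 h in the IL-6 libraries, against -0.18, -0.13 and -0.06 in the control libraries. The IL-6 arm spanned more than the control arm on both sides, so the arms overlapped and the difference turned at 48 h. The differences were 0.76, 0.37 and -0.39, with an effect of 0.25 ± 0.25 (SE; limma adjusted p = 0.837), or -0.0086 without the 6 h pair.

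NOC2L, its relative, had 0.25, -0.34 and -0.08 in the IL-6 libraries at 6, 24 and 48 h, against 0.10, 0.12 and -0.05 in the control libraries. It was among the 3 lowest genes over the 3 times, with differences of 0.15, -0.46 and -0.03 and an effect of -0.11 ± 0.13 (SE; limma adjusted p = 0.868), or 0.059 without the 24 h pair. NOP16 had 0.57, -0.04 and -0.32 in the IL-6 libraries, against 0.17, -0.21 and -0.18 in the control libraries. Both arms of NOP16 were highest at 6 h, and its change at 48 h relative to 6 h was -0.62 ± 0.15 (SE; limma adjusted p = 0.0551).

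PES1, BOP1 and WDR12 form the PeBoW complex, which is needed to mature the large subunit RNAs, and had differences of 0.24, 0.22 and 0.30 at 6 h. WDR12 had 0.11, -0.05 and 0.12 in the IL-6 libraries at 6, 24 and 48 h, against -0.19, -0.14 and 0.16 in the control libraries. Its change at 48 h relative to 6 h was 0.18 ± 0.14 (SE; limma adjusted p = 0.501). GNL3 (nucleostemin), NIP7 and PPAN had 0.49, 0.48 and 0.45 at 6 h and -0.03, -0.14 and 0.09 at 48 h. MRTO4, RRS1, NOP2, which methylates the large subunit RNA, and RRP1 had 0.34, 0.34, 0.24 and 0.20 at 6 h.

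Within the IL-6 arm, 37 of the 40 genes were lower at 24 h than at 6 h and 35 were lower at 48 h than at 6 h. Of all tested genes, 44.5% and 46.3% were lower. The median log2 differences were -0.41 and -0.44, against 0.06 and 0.05 over all tested genes. The 3 exceptions at 24 h were POLR1A, WDR43 and DDX10. Within the control arm, 23 of the 40 were lower at 24 h than at 6 h and 25 were lower at 48 h, against 35.9% and 41.5% of all tested genes. The medians of the 40 in this arm were -0.07 and -0.06, against 0.15 and 0.09 over all tested genes. With equal library medians these 2 medians of the 40 genes were -0.22 and -0.15, and those of the IL-6 arm were -0.47 and -0.48. The IL-6 library of 6 h enters both the difference at 6 h and the lower later values of the IL-6 arm, so these are not separate observations. From 24 to 48 h, 23 of the 40 genes (57.5%) were lower in the IL-6 arm and 18 (45%) in the control arm. The shares of all tested genes were 50.1% and 56.5%.

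**Figure D4:**
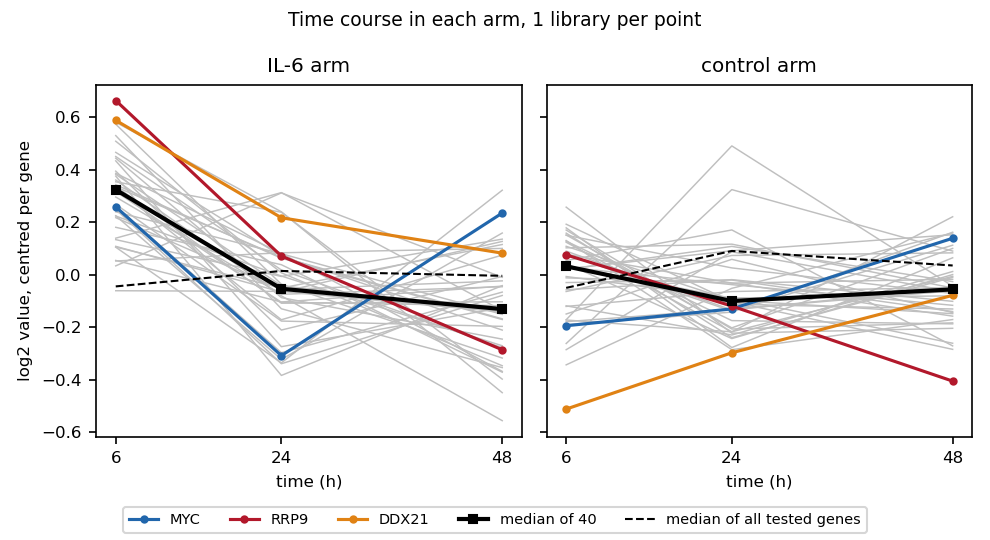
Deposited log2 values (vertical axis) against time in the IL-6 arm (left) and the control arm (right), with a grey line per gene of the 40, their median in black, MYC, RRP9 and DDX21 in colour, and the median of all tested genes as a broken line. The black line stands at 0.32, -0.05 and -0.13 in the IL-6 arm and at 0.03, -0.10 and -0.06 in the control arm.

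In the limma model of culture time over both arms, 0 of the 40 genes passed at 24 h relative to 6 h, against 1.65% of all tested genes, and RRP9 and NHP2 passed at 48 h, 2 of 40 against 3.68%. The count of 2 was 0 without the library pair of 24 h, and also without the level filter, the variance trend or the robust step of the model. Cell cycle genes moved with culture time in both arms: a list of 20 mitosis genes had median log2 differences at 24 h relative to 6 h of 0.85 in the IL-6 arm and 0.86 in the control arm, and 11 of them, CCNB1 among them at 1.52, passed as higher. A list of 20 S phase genes had -0.51 and -0.55, and 5 of them, PCNA among them at -0.87, passed as lower (limma adjusted p under 0.05). Between the arms these lists had medians of -0.08 for mitosis and near 0 for S phase at 6 h. The part of the cell cycle in the values of the 40 genes was not tested.

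Other genes of ribosome production, in lists that do not hold the 40, had positive medians at 6 h as well. Those lists were also chosen with earlier results of these data known. Of 44 further small subunit processing genes, 35 were higher with IL-6 at 6 h, with a median of 0.18, between -0.59 for PWP2 and 0.72 for DHX37. Of 46 further large subunit genes, 36 were higher, with a median of 0.24, between -0.33 for DDX54 and 1.24 for PELP1. PWP2, DHX37 and PELP1 had low recovered mean levels of 3.05, 4.01 and 4.39. At 24 h the differences of PWP2, DHX37 and PELP1 were -1.17, -1.12 and -0.39. The median was 0.20 for 12 RNA polymerase I subunits and factors, 0.14 for 10 snoRNP assembly genes and 0.12 for 14 RNA exosome genes. None of the genes in these 5 lists passed for IL-6 over the 3 times (limma), against 0.251% of all tested genes. At an unadjusted limma p under 0.05 there were 3 of the 46 large subunit genes and 1 of the 14 exosome genes, all higher. Of all tested genes, 3.70% were higher at this threshold. At 48 h relative to 6 h, PNO1, EBNA1BP2, RRP15 and SNU13 fell in the culture time model by 0.73, 0.61, 1.18 and 0.70, and NOP53 rose by 0.66 (limma adjusted p between 0.0213 and 0.0378). In the same comparison 3.68% of all tested genes passed in either direction.

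Of the 79 cytosolic ribosomal protein genes, the structural parts of the ribosome, 75 were higher with IL-6 at 6 h, with a median of 0.15, and 3 were higher at 48 h, with a median of -0.22. None passed for IL-6 (limma, with 0 also at an unadjusted p under 0.05). FAU, RPS15, RPS26, RPL27 and RPL35 were among those that fell at 48 h relative to 6 h (limma adjusted p between 0.00899 and 0.0390). Of all tested genes, 3.68% passed in that comparison in either direction. Ribosomal protein genes have many processed pseudogenes, and reads shared with them could be counted in either. The 16 small nucleolar RNA host genes had a median of 0.24 at 6 h and -0.25 at 48 h, with SNHG3 the highest at 6 h at 0.95. Of 20 other known MYC targets tested, 19 were higher at 6 h, with a median of 0.20. For culture time at 48 h, 4 of the 20 passed, against 3.68% of all tested genes. The transporter SLC7A5 rose by 1.53, and HSPE1, NME1 and PAICS fell by 1.09, 0.88 and 0.57 (limma adjusted p between 0.000603 and 0.0385). Without the variance trend, culture time called 0 of all tested genes. In the differences at 6 h, by contrast, 10 genes of the MYC and MAX network had a median of 0.05, with 5 of 10 higher, MYCL the highest at 0.33 and MGA the lowest at -0.71. The fits did not test whether any of these lists differed from the other genes.

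**Figure D5:**
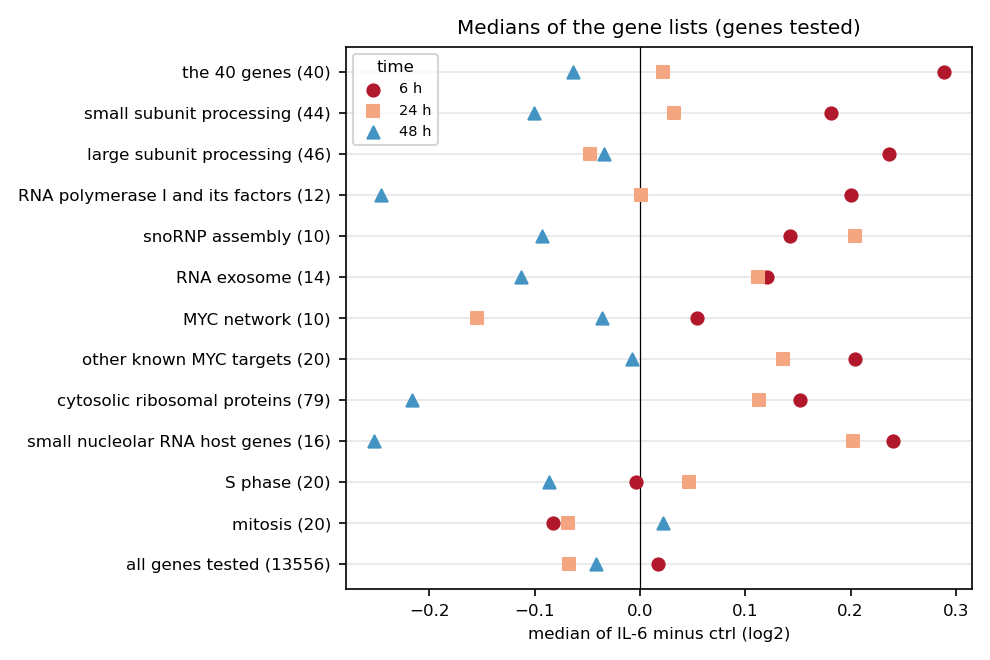
Median of IL-6 minus control in log2 (horizontal axis) for the 40 genes as a whole, the other lists of ribosome production, MYC and the cell cycle, and all tested genes, with the number of genes tested in brackets, at 6 h (circles), 24 h (squares) and 48 h (triangles). Among the lists drawn, which leave out the IL-6 response genes and the role groups within the 40, the 40 genes have the highest median at 6 h, 0.29, and all genes tested lie near 0 at each time.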

How the data were processed

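Per the labels' protocols, SMART-seq amplification of total RNA was followed by Nextera XT library preparation, neither of which marks the strand, and Illumina NovaSeq sequencing. The genome build was GRCh38 (hg38), per the submitters' processing notes; not given in the sources used here: aligner, counting, normalization. Per the file headers the tables hold a processed signal. Its deposited log2 values average 0 for each gene within 1.8e-07, so the authors centred each gene.

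Values of a gene stood in whole-number ratios after 1 offset per library was removed, which gave a level in steps of 0.001, an arbitrary unit, for 15686 of 17388 genes with 6 values (90.2%). The other 1702, with 11 of the 40 genes (MYC, NCL and NPM1 among them), were treated as high. Levels served for the filter (mean of at least 1), the variance trend, the comparison of genes at 10 or above, and the alternative log2(level + 1). Of 2000 decoy genes, 149 were matched by accident, at mean levels of 39.7 and above.

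limma 3.58.1 in R 4.3.3 was fitted to the deposited log2 values of 13556 genes with time and agent as terms, a trend and robust empirical Bayes (7.67 prior and 2 residual degrees of freedom), and Benjamini-Hochberg adjustment at 0.05 over all genes. A second model added a term for IL-6 at 6 h. The scripts were checked on simulated data. Differences at 1 time compare 2 libraries, without a test.

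The 40 genes and the other lists were chosen with earlier results of these data known. Values in every library are given for MYC, MAX, genes past a threshold, and the 3 highest and 3 lowest genes by the difference at 6 h, by the effect over 3 times and by the change at 48 h; from other lists, the extremes at 6 h and genes past a threshold, of which 1 is not reported here. HEATR1 and some of the genes given by differences were mentioned after their values were seen. Alternatives were the scaling, filter, trend, robust step, pseudocount, time block and each pair of libraries left out.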

Additional observations from a re-analysis of the deposited data

How the results depend on the processing

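Of the 40 genes, 0 passed for IL-6 over the 3 times, and 0 for IL-6 at 6 h against later, in each alternative run. The count of all genes called for IL-6, 34, was 14 without the level filter, 0 without the variance trend, 12 without the robust step, 4 without time as a block, and between 16 and 105 with a pair of libraries left out. Culture time called 622 of all genes, and 345, 0 and 264 without the filter, the trend and the robust step. The 2 genes called at 48 h relative to 6 h, and so for culture time, were 0 in each of these 3 alternatives and 1 on log2(level + 1), where NHP2 has no level; they were 0 without the 24 h pair. At 24 h, 2 of the 40 passed without the 48 h pair. The share of all tested genes that passed in that run was not counted, so the 2 cannot be set against it. 

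The median of the 40 genes over the 3 times, 0.11, was -0.0098 to 0.16 with a pair left out, the lowest without the 6 h pair. With equal library medians the control arm median at 24 h relative to 6 h was -0.22. With the authors' library factor removed, an alternative chosen after seeing the data, the median at 48 h between IL-6 and control was 0.0025, that at 48 h relative to 6 h was -0.15 over both arms and -0.27 in the IL-6 arm; 20 of the 40 were then higher at 48 h, against 12 as deposited. At 6 h, 38 of the 40 were higher under all 3 scalings, with medians of 0.23 to 0.29 and 17 to 21 genes past 1.2-fold. The effect over the 3 times changed sign without the 6 h pair for MYC (range over the pairs left out -0.041 to 0.27) and NOC3L (-0.0086 to 0.57), without the 48 h pair for TCOF1 (-0.075 to 0.14), and without the 24 h pair for NOC2L (-0.24 to 0.059) and UTP20 (-0.54 to 0.010); the cause was not tested. No paired analysis was possible because no label gives a replicate number, other than the pairing of libraries by time that is already in the fits as a block. The model for IL-6 at 6 h against later could not be fitted with a pair left out. Without read counts no limit from depth can be given, and a small difference within 1 pair cannot be separated from variation between cultures.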

Other observations

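The E-box count was also set beside the differences, after the values were seen. At 6 h the 14 genes of the 40 with CACGTG in a promoter entry had a median log2 difference between IL-6 and control of 0.35, and the 18 with entries but without the motif had 0.30; 8 of the 14 and 10 of the 18 were at least 1.2-fold higher. Over all tested genes with a promoter entry, 19.3% of those with the motif and 19.4% of those without it were at least 1.2-fold higher at 6 h, with medians of 0.03 and 0.01. These are descriptions without a test.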
